A study of Arabidopsis thaliana with 12 samples.

Results

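The genotype by cytokinin interaction in Arabidopsis thaliana roots is, for each gene, the response to benzyladenine (BA) in bpc1,2,3,4,6 mutant roots minus the response in wild-type roots. It could be estimated for 20776 of the 33602 genes in the table of expression values, those with at least 0.5 RPKM (reads scaled to the length of the gene and the reads of the library) in at least 3 of the 12 libraries. The 4 groups of 3 libraries were wild type (WT, Col-0) with vehicle, WT with BA, the quintuple mutant bpc1,2,3,4,6 (bpc) with vehicle and bpc with BA. Sets of 12 intact seedlings, 10 days old and grown upright on plates, spent 1 h in liquid medium with 5 µM BA or with the vehicle, 0.01% of 5 N NaOH, and their whole roots were then cut off for RNA. Shoots were exposed to BA along with roots. The labels name the mutated BPC genes but no alleles or insertion sites, and nothing in them states that replicates were grown separately, so p-values and intervals measure only the spread between these libraries. In bulk roots, fewer cells of a type and less RNA per cell cannot be told apart.

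Cytokinins are plant hormones that histidine kinase receptors bind at membranes. The receptors pass phosphate through AHP proteins to type-B response regulators, transcription factors that switch on target genes within minutes, among them the type-A response regulators and cytokinin oxidases, which dampen the signal and break the hormone down. In roots, cytokinin limits the meristem and the formation of lateral roots. The BASIC PENTACYSTEINE (BPC) proteins are plant transcription factors that bind GAGA repeats. The design asks whether roots short of several BPC proteins answer cytokinin in the same way as WT roots.

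The BPC transcripts themselves check the genotype; positions here and below are from RefSeq TAIR10.1. BPC1 (AT2G01930; chromosome 2, 427114 to 428900) had 13.4, 11.1 and 10.6 RPKM in WT vehicle, 15.5, 20.1 and 14.5 in WT BA, 2.20, 1.43 and 1.74 in bpc vehicle and 1.66, 1.61 and 0.935 in bpc BA. BPC2 (AT1G14685; chromosome 1, 5042240 to 5045556) and BPC6 (AT5G42520; chromosome 5, 17000259 to 17002607) were lower in every bpc library than in any WT library as well, with 1.58 ± 0.318 and 1.32 ± 0.468 RPKM in bpc vehicle (mean ± SD, n = 3) against 17.1 ± 1.79 and 31.9 ± 5.23 in WT vehicle. BPC4 was lower by less, at 16.3 ± 1.68 against 23.4 ± 2.88 RPKM, and BPC3 went against its label, at 3.16 ± 0.710 in bpc against 1.38 ± 0.255 in WT; without the insertion sites, reads that remain check nothing. BPC1 also had an interaction interval that excluded 0, but it did not pass the adjusted test. The label names BPC1 as mutated, so its bpc values are reads that remain. Its levels in WT with BA lay above those with vehicle, while in bpc the 2 treatments overlapped, and its log2 interaction was −0.76 (95% interval −1.35 to −0.17), adjusted p = 0.9998 in limma. For the other 6 BPC genes the interval held 0, from −0.36 (95% interval −0.98 to 0.26) for BPC3 to 0.44 (95% interval −0.066 to 0.94) for BPC5, which the label does not name as mutated.

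The read totals behind the RPKM values, recovered from the steps between low values, ran from 9427910 to 13951020 per library. WT BA replicate 1 shares its divisor of 11653480 with WT vehicle replicate 2, and its RPKM values sum to 86.9% of the median library against 98.2% to 101.1% in the others. The vehicle libraries numbered 3 stood apart in both genotypes. EXT3 (AT1G21310), an extensin of the cell wall, had 17672 and 22185 RPKM in them and 5452 to 8571 in the other 10, and their deviations from the group means correlated at 0.63 over all genes. Markers of root cell types were present in all groups. The summed level of 12 photosynthesis genes, which mark shoot tissue, was 141 to 206 RPKM in WT vehicle, 134 to 185 in WT BA, 125 to 164 in bpc vehicle and 135 to 156 in bpc BA. Of these, 10 passed the filter on low values, and their median interaction was 0.20 (log2) against 0.050 over all genes, or 0.15 against −0.013 with WT BA 1 rescaled to the other libraries and 0.43 against 0.032 without the vehicle libraries numbered 3; their part in other differences was not tested.

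Across the transcriptome few responses to BA could be told apart between the genotypes. Levels were compared as log2(RPKM + 0.5) in one limma fit over the 12 libraries, in which an interaction above 0 means a larger rise or a smaller fall in bpc, and fold changes of low genes are understated by the added 0.5. At a Benjamini-Hochberg adjusted p of 0.05, 1 of 20776 genes (0.00481%) had a response that was higher in bpc and 0 (0.0%) had one that was lower. At an unadjusted p of 0.05, which is the same as a 95% interval that excludes 0, there were 338 genes (1.63%), 206 of them above 0 and 132 below. With no interaction in any gene, a share of about 0.05 is due at this p. The median interaction over all genes was 0.050, and −0.013 with WT BA 1 rescaled, so the split of 206 and 132 is not read as a trait of the mutant. Among the strong responders defined below, 27 of 45 such genes lay above 0, and 21 of 54 with WT BA 1 rescaled. The count of 338 became 700 (3.37%) with same-numbered vehicle libraries as a block, an alternative added after the data were seen. Conversely, the whole interval lay between −1 and 1, so that a difference of 2-fold or more between the responses was outside it, for 17662 genes (85.0%).

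The gene that passed the test rested on very few reads. AT3G25221 (chromosome 3, 9184688 to 9184792), an uncharacterized gene of 105 bases, had 0.683, 0.817 and 1.89 RPKM in WT vehicle, 0, 0 and 0 in WT BA, 0, 0 and 0 in bpc vehicle and 0.816, 0.871 and 1.01 in bpc BA. These values are worth 1, 1 and 2 reads in WT vehicle and 1 read in each bpc BA library, and the gene was listed at 0 in all 6 libraries of the other groups. Its fitted interaction was 3.11 (95% interval 2.35 to 3.88) with an adjusted p of 0.020, a value set by the added constant, since it moved from 1.97 with a constant of 1 to 6.81 with 0.1. The call was lost when any single library of WT BA, bpc vehicle or bpc BA was left out and with a constant of 1, and a minimum of 2 RPKM removed the gene. The next smallest p-values also belonged to sparse transcripts, the pseudogene RSU1 (AT3G48130; adjusted p = 0.51), the small nucleolar RNA gene AT2G43137 (adjusted p = 0.61) and the tRNA gene AT4G12065 (adjusted p = 0.80). AT2G43137 was listed at 0 in 9 libraries and had 2, 1 and 1 reads in WT BA.

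The question is sharpest for genes that respond strongly. A gene was taken as a strong responder when its mean BA effect over both genotypes passed an adjusted p of 0.05 and reached 1 in absolute log2. With equal groups the estimate of this mean carries no information about the estimated interaction, so the choice favours neither genotype. Both tests use the same estimate of the spread of a gene. The choice by adjusted p can therefore favour genes with a small estimated spread, whose intervals are narrower. It gave 649 genes (3.12% of those tested), 405 that rose and 244 that fell; without the limit on size, 6.68% of all genes passed the test as rises and 9.22% as falls. AT3G63380 lay just inside the threshold at −1.00001 and STO (AT1G06040), a B-box transcription factor gene, just outside it at 0.9999. The median log2 level of the 405 risers was 2.17 to 2.33 in the 6 vehicle libraries and 3.70 to 3.91 in the 6 BA libraries, with WT BA replicate 1 the lowest of these. For the 244 fallers it was 3.43 to 3.70 with vehicle and 2.02 to 2.38 with BA. In both sets the treatments did not overlap, which the choice by the mean effect favours, and the genotypes overlapped under each treatment.

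None of the 649 strong responders passed the adjusted test for an interaction, against 0.00481% of all genes, and each had an adjusted p of 0.9998 in limma. For 430 (66.3%, against 85.0% of all genes) the 95% interval lay between −1 and 1, and the response is described here as kept within 2-fold. The share of 66.3% became 46.2% with an added constant of 0.1 and 79.6% with a constant of 1. A further 183 were undecided, since their interval held 0 but reached past −1, past 1 or both. For 45 (6.93%, against 1.63% of all genes) the unadjusted interval excluded 0. A share of about 0.05 is due at this p with no interaction in any gene. These shares were not tested against each other or against that value. Of these 45, 23 had a larger response in bpc and 22 a smaller one, and 9 also stayed between −1 and 1. No strong responder rose in one genotype and fell in the other, an outcome that the choice by the mean effect favours. The median interaction was 0.0052 for risers and 0.021 for fallers, beside 0.050 over all genes. With WT BA 1 rescaled these medians were −0.058, −0.031 and −0.013. Without rescaling, the quartiles of the strong responders were −0.18 and 0.23.

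**Figure D1:**
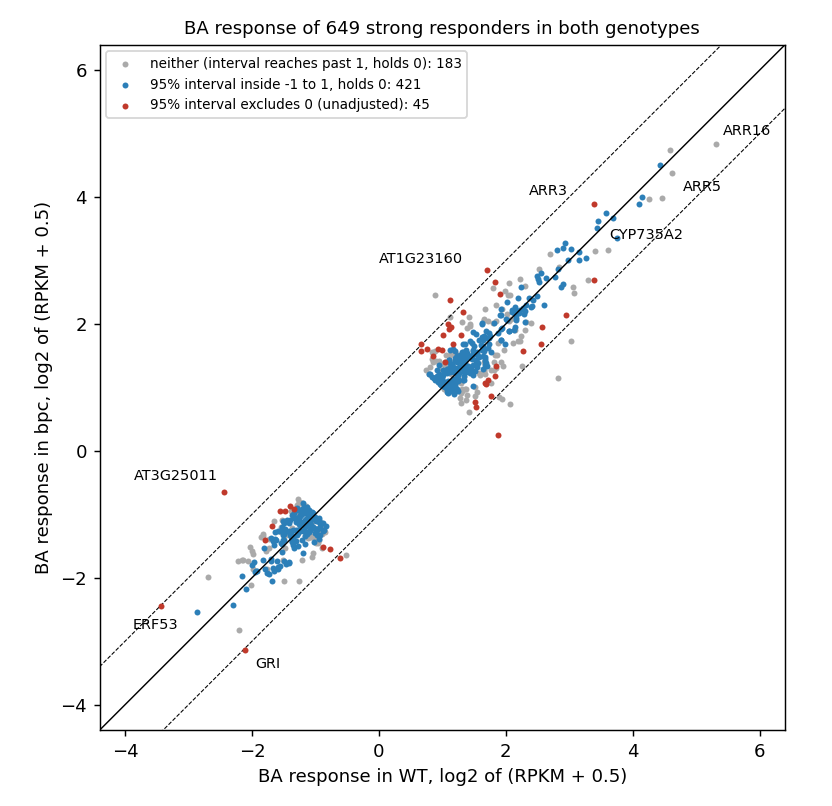
Response to BA in bpc (vertical axis) against WT (horizontal axis), each as a log2 difference of RPKM + 0.5, for 649 strong responders; the solid line marks equal responses and the dashed lines a difference of 1. Points lie along the solid line, with 421 whose 95% interval lies between −1 and 1 and holds 0, 183 undecided and 45 whose unadjusted interval excludes 0; ERF53, GRI, AT1G23160 and AT3G25011 are among the last.

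The sizes of response were close in both genotypes. The median log2 response of the risers was 1.45 in WT and 1.47 in bpc, and that of the fallers −1.26 and −1.25. Over the 649 genes the WT and bpc responses correlated at r = 0.972 with a major-axis slope of 0.993, a description over genes that share libraries and were chosen for responding; within risers alone r was 0.848 and within fallers 0.600. Each genotype called a similar number of genes, 1803 in WT (8.68%; 3.85% rises, 4.83% falls) and 1785 in bpc (8.59%; 4.24% rises, 4.36% falls). Of the 649 strong responders, 573 were called in both genotypes, 31 in WT alone and 30 in bpc alone, counts that the choice by the mean effect favours. Of all 20776 genes, 1345 were called in both, 458 in WT alone and 440 in bpc alone.

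How firmly a response can be called kept depends on the width of its interval. The median distance from the estimate to either end was 0.604 for strong responders and 0.488 for all genes, and it ran from 0.263 to 2.05 among strong responders. Level mattered: of 603 strong responders with a mean of at least 2 RPKM in some group, 417 (69.2%) were kept within 2-fold, against 90.4% of all 18157 such genes, whereas of the 46 that stayed below 2 RPKM only 13 (28.3%) were. Among the 105 that changed by 2 or more in mean log2, 63 (60.0%) were kept and 10 had an interval that excluded 0. Both vehicle groups were listed at 0 for 11 strong responders, whose fitted differences depend on the added 0.5. The count of 45 also depended on the libraries that stood apart. It became 70 without WT vehicle 3, of which 33 were among the 45, 64 without bpc vehicle 3 and 75 without both, while the strong responders kept within 2-fold were 397, 420 and 433.

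Because BPC proteins bind GAGA repeats and type-B regulators bind a short core with GAT, the 250 bases before the annotated start of each protein-coding gene were searched on both strands for GAGAGA and for AGATACG. The windows come from RefSeq TAIR10.1, and 4 are printed because they belong to a strongly induced type-A regulator (ARR5), the type-A regulator whose interval excludes 0 (ARR3), and a rising and a falling gene whose intervals also exclude 0 (AT1G23160 and ERF53). Capitals mark GAGAGA on the printed strand or its complement, and overlapping matches run together. The windows are, for ARR5, chr3:17760951-17761200, minus strand, for ARR3, chr1:22067234-22067483, minus strand, for AT1G23160, chr1:8208976-8209225, plus strand, and for ERF53, chr2:8985709-8985958, plus strand, each printed 5′ to 3′ in the direction of its gene.
ARR5: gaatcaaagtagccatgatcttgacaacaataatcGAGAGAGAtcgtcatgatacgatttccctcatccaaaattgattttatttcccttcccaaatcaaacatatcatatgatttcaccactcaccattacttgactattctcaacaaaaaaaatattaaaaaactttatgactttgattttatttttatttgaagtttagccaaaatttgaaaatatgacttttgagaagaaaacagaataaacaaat
ARR3: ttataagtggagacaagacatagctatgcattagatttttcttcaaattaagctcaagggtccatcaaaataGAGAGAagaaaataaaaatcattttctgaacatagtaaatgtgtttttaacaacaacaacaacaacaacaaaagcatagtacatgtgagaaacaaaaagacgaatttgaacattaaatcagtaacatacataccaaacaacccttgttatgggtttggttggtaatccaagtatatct
AT1G23160: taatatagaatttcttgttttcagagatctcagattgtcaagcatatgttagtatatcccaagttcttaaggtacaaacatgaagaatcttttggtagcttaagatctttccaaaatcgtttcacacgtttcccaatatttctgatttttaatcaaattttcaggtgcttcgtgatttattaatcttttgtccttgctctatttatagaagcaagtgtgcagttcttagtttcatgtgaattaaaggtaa
ERF53: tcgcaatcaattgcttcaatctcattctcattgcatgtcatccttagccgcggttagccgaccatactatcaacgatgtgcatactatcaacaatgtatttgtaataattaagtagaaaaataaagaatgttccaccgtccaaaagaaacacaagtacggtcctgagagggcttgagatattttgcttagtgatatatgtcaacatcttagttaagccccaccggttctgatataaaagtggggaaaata

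ARR5 holds 2 overlapping matches to GAGAGA and ARR3 holds 1, while the windows of AT1G23160 and ERF53 hold none, and AGATACG is in none of the 4. Over all 27443 protein-coding windows GAGAGA was present in 20.6%, and over the 20013 of tested genes in 19.4%. It was present in 17.1% of 625 strong responders, in 17.1% of the 415 kept within 2-fold with an interval that holds 0, in 14.7% of the 170 undecided and in 11 of the 40 (27.5%) whose interval excludes 0. AGATACG was present in 1.69% of all windows, in 3.90% of strong risers and in 0.417% of strong fallers. These shares describe letters in windows and were not tested. A match is not a binding site, and no match says nothing of the factor.

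The receptor gene AHK4 kept its response within 2-fold. AHK4, the receptor kinase also known as CRE1 (AT2G01830; chromosome 2, 362983 to 369707), had 19.9, 17.7 and 16.1 RPKM in WT vehicle, 36.7, 44.6 and 47.6 in WT BA, 19.5, 19.5 and 19.2 in bpc vehicle and 38.2, 44.2 and 45.5 in bpc BA. BA raised it in all libraries of both genotypes, and the genotypes overlapped under both treatments. Its log2 response was 1.24 ± 0.12 in WT and 1.11 ± 0.12 in bpc (± SE), and the interaction was −0.13 (95% interval −0.49 to 0.24). Of 8 measured receptor and phosphotransfer genes, 3 rose and 3 fell in WT and 3 rose and 0 fell in bpc at an adjusted p of 0.05. Over all genes, 3.85% rose and 4.83% fell in WT, and 4.24% rose and 4.36% fell in bpc. All 8 intervals of the interaction lay between −1 and 1, beside 85.0% of all genes. The difference in counts of falls is thus not a tested difference between the genotypes. Of 6 measured type-B regulators, 0 were strong responders, and 1 interval excluded 0.

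The type-A response regulators, the early negative feedback genes of the pathway, were all 10 measured and all 10 rose in both genotypes, beside 3.85% of all genes in WT and 4.24% in bpc. ARR16 (AT2G40670; chromosome 2, 16969673 to 16972113) had 0.672, 0.134 and 0.311 RPKM in WT vehicle, 30.7, 38.1 and 30.9 in WT BA, 0.732, 0.292 and 0.159 in bpc vehicle and 20.8, 25.9 and 26.2 in bpc BA. Vehicle levels were below 1 RPKM and overlapped, while with BA each bpc library was below each WT library. The response was 5.31 ± 0.25 in WT and 4.83 ± 0.25 in bpc, and the interaction of −0.48 (95% interval −1.23 to 0.28) left it undecided. ARR15 (AT1G74890) showed the same order with BA, 20.9, 19.6 and 17.9 RPKM in WT and 12.1, 13.4 and 13.8 in bpc, with an interaction of −0.48 (95% interval −1.29 to 0.34) that ran from −0.86 to 0.075 over 26 alternatives. ARR5 (AT3G48100; chromosome 3, 17758427 to 17760950), with 2 GAGAGA matches in the window above, had 7.46, 2.44 and 5.93 RPKM in WT vehicle, 125, 159.8 and 111 in WT BA, 6.00, 5.24 and 6.00 in bpc vehicle and 127, 142 and 120.3 in bpc BA. Its groups overlapped between genotypes under both treatments. The response was 4.62 ± 0.28 in WT and 4.38 ± 0.28 in bpc, the interaction was −0.24 (95% interval −1.09 to 0.61), and its sign depended on WT vehicle replicate 2, the lowest vehicle value, without which it was 0.19.

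ARR3 (AT1G59940; chromosome 1, 22065617 to 22067233) was the type-A regulator whose interval excluded 0. It had 4.23, 3.35 and 2.84 RPKM in WT vehicle, 39.8, 37.3 and 45.6 in WT BA, 2.76, 2.85 and 2.71 in bpc vehicle and 44.2, 48.3 and 52.3 in bpc BA. With vehicle the genotypes touched at their edges, with BA they overlapped, and the bpc values were at the lower end of the vehicle range and the upper end of the BA range. The response was 3.39 ± 0.13 in WT and 3.89 ± 0.13 in bpc, a difference of 0.50 (95% interval 0.095 to 0.91) that stayed below 2-fold and did not pass the adjusted test. The interval held 0 when WT vehicle 1, WT BA 2 or bpc BA 3 was left out, with an interaction of 0.37 to 0.62 over 26 alternatives. Responses of ARR6, ARR7, ARR8 and ARR3 were kept within 2-fold, as was that of ARR9, with interactions of −0.23 (95% interval −0.71 to 0.25), −0.032 (95% interval −0.75 to 0.68), −0.18 (95% interval −0.66 to 0.31) and −0.13 (95% interval −0.93 to 0.67) for ARR6, ARR7, ARR8 and ARR9. ARR17 and ARR4 were undecided by a narrow margin, at 0.15 (95% interval −0.69 to 1.0001) and 0.061 (95% interval −0.93 to 1.06). ARR4 had 45.1, 37.3 and 18.01 RPKM in WT vehicle and 44.1, 42.7 and 19.3 in bpc vehicle, the lowest value of each group being its replicate 3. The overlap of neighbouring genes on the other strand touches ARR6, ARR8 and ARR9, and these genes could share reads with them if strand was ignored in counting. Thus 5 of the 10 were kept within 2-fold, against 66.3% of all strong responders.

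Genes that break down or conjugate cytokinin also rose in both genotypes, 6 of 9 measured in WT and 6 in bpc, with 0 falls. Of all genes, 3.85% rose and 4.83% fell in WT, and 4.24% rose and 4.36% fell in bpc. CKX3, a cytokinin oxidase (AT5G56970; chromosome 5, 23044839 to 23048292), had 0.764, 0.915 and 0.623 RPKM in WT vehicle, 12.3, 15.5 and 12.1 in WT BA, 0.822, 0.586 and 0.893 in bpc vehicle and 14.8, 14.6 and 12.5 in bpc BA. Genotypes overlapped at both treatments. Its response was 3.44 ± 0.15 in WT and 3.52 ± 0.15 in bpc and its interaction 0.074 (95% interval −0.39 to 0.54). CKX5 and the N-glucosyltransferase UGT76C2 were kept too, at 0.033 (95% interval −0.53 to 0.59) and −0.11 (95% interval −0.56 to 0.34), while CKX4 reached just past 1, at 0.40 (95% interval −0.24 to 1.04). UGT85A1, a zeatin O-glucosyltransferase (AT1G22400; chromosome 1, 7903660 to 7906969), had 5.44, 6.01 and 7.02 RPKM in WT vehicle, 23.9, 24.5 and 24.7 in WT BA, 4.29, 5.47 and 4.18 in bpc vehicle and 29.6, 24.9 and 29.2 in bpc BA. With BA every bpc library was above every WT library, and with vehicle the groups overlapped at their edges. The order with BA depends on the scaling of WT BA 1, whose RPKM values sum to 86.9% of the median library. Its response was 1.91 ± 0.13 in WT and 2.47 ± 0.13 in bpc, a difference of 0.56 (95% interval 0.17 to 0.95), within 2-fold although the interval excluded 0.

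Cytokinin biosynthesis moved in both directions, with 4 genes up and 5 down of 16 measured in each genotype. The shares over all genes were 3.85% up and 4.83% down in WT, and 4.24% up and 4.36% down in bpc. CYP735A2, the hydroxylase that makes trans-zeatin forms (AT1G67110; chromosome 1, 25061673 to 25065446), had 12.4, 11.03 and 8.88 RPKM in WT vehicle, 109, 133 and 126 in WT BA, 10.3, 10.5 and 8.68 in bpc vehicle and 114, 137 and 128 in bpc BA. The genotypes overlapped under both treatments. Its response of 3.46 ± 0.13 in WT and 3.62 ± 0.13 in bpc was kept, with an interaction of 0.16 (95% interval −0.25 to 0.57). IPT5, an isopentenyltransferase of the first committed step (AT5G19040; chromosome 5, 6361776 to 6363713), fell, with 9.23, 9.09 and 6.87 RPKM in WT vehicle, 1.52, 1.76 and 1.46 in WT BA, 8.91, 7.83 and 6.91 in bpc vehicle and 1.47, 1.39 and 1.21 in bpc BA. Here too the genotypes overlapped, and the response of −2.09 ± 0.15 in WT and −2.17 ± 0.15 in bpc was kept at −0.082 (95% interval −0.54 to 0.37). IPT7 and CYP735A1 were kept at 0.020 (95% interval −0.56 to 0.60) and 0.23 (95% interval −0.22 to 0.68), respectively. LOG2 (AT2G35990), of the LONELY GUY enzymes that activate cytokinin, went from 0.0425, 0.0508 and 0 to 3.15, 5.12 and 4.65 RPKM in WT and from 0.222, 0.111 and 0.482 to 4.82, 6.61 and 5.40 in bpc. Its vehicle levels lay under the added constant of 0.5, and its interaction of −0.15 (95% interval −0.82 to 0.51) moved to −1.01 with a constant of 0.1. The authors' deposited tables give log2 fold changes of 6.98 in WT and 4.36 in bpc for it, so whether its response was kept depends on that constant. LOG4 (AT3G53450) went from 2.46, 3.03 and 3.93 to 1.32, 1.27 and 1.47 RPKM in bpc and from 3.65, 3.71 and 3.22 to 1.06, 0.952 and 0.817 in WT. Its BA groups did not overlap, and its interaction was 0.53 (95% interval 0.025 to 1.03), so the lower end was close to 0, and it excluded 0 in 12 of 26 alternatives. LOG1 was undecided at −0.21 (95% interval −1.03 to 0.60). CRF5, an AP2/ERF cytokinin response factor (AT2G46310), was the strong responder among 9 measured and was kept at −0.18 (95% interval −0.71 to 0.35).

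**Figure D2:**
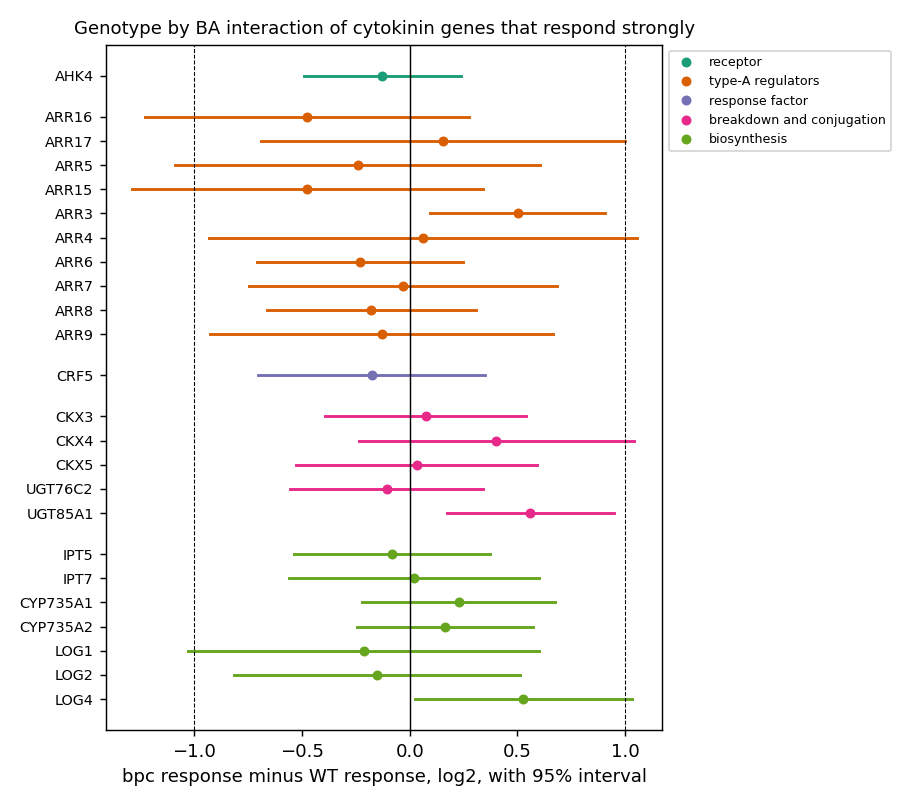
Difference of the BA responses, bpc minus WT (log2 of RPKM + 0.5, horizontal axis), of the cytokinin genes that respond strongly, with the 95% interval from limma as a bar and colours for the role of the gene. All 24 estimates lie between the dashed lines at −1 and 1, and the intervals of ARR3, UGT85A1 and LOG4 exclude 0.

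The largest rises and falls among strong responders outside the cytokinin pathway with at least 2 RPKM come next. ERF53 and GRI, also among the largest falls, had intervals that excluded 0. Their interactions were 0.99 (95% interval 0.36 to 1.62) and −1.03 (95% interval −1.62 to −0.44), and both genes are described below. AT5G47980, a HXXXD-type acyl-transferase gene (chromosome 5, 19428888 to 19430517), had 7.22, 6.37 and 4.32 RPKM in WT vehicle, 126, 121 and 163 in WT BA, 6.19, 8.47 and 6.09 in bpc vehicle and 139.6, 166 and 199 in bpc BA. The genotypes overlapped, and its response of 4.42 ± 0.20 in WT and 4.51 ± 0.20 in bpc was kept at 0.087 (95% interval −0.51 to 0.69). AT4G25410, a bHLH protein gene, and AT2G43470 were kept as well, at −0.15 (95% interval −0.80 to 0.50) and −0.20 (95% interval −0.76 to 0.37), and the pseudogene AT1G33740 was undecided at −0.29 (95% interval −1.14 to 0.57). Of the largest falls, AT1G27670 (chromosome 1, 9627533 to 9628749), an uncharacterized gene, had 8.99, 8.35 and 8.49 RPKM in WT vehicle, 0.649, 1.08 and 0.572 in WT BA, 8.51, 9.10 and 8.69 in bpc vehicle and 1.48, 1.09 and 0.803 in bpc BA. Its BA groups overlapped, and its response of −2.87 ± 0.18 in WT and −2.53 ± 0.18 in bpc was kept at 0.33 (95% interval −0.21 to 0.88). The transcription factor gene WRKY54 was kept at −0.13 (95% interval −0.76 to 0.50), and GDU2, of the GLUTAMINE DUMPER family, at 0.17 (95% interval −0.62 to 0.96). The MYB gene LAF1 reached past −1 at −0.61 (95% interval −1.27 to 0.057); it was lower in bpc with BA, with a log2 difference of −1.18 ± 0.22 (limma adjusted p 0.014). NRT2.6, a nitrate transporter family gene, gave the widest interval of these, 0.72 (95% interval −0.81 to 2.24), with 0.794, 0.548 and 5.26 RPKM in bpc BA, where replicate 3 stood far above the others.

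The tightest intervals showed responses that were kept within a much smaller margin. TBL27, also known as AXY4, which acetylates xyloglucan in the cell wall (AT1G70230; chromosome 1, 26450166 to 26452039), had 23.6, 21.7 and 22.0 RPKM in WT vehicle, 10.09, 10.3 and 10.3 in WT BA, 22.6, 23.0 and 23.5 in bpc vehicle and 10.5, 11.2 and 10.7 in bpc BA. The replicates were almost level, the vehicle groups overlapped and the bpc BA libraries lay just above the WT BA libraries. That order depends on the scaling of WT BA 1, whose RPKM values sum to 86.9% of the median library. The response was −1.09 ± 0.086 in WT and −1.06 ± 0.086 in bpc, with an interaction of 0.036 (95% interval −0.23 to 0.30). EXPA17, of the expansins, which loosen cell walls (AT4G01630; chromosome 4, 700566 to 701769), had 197, 180.2 and 202 RPKM in WT vehicle, 85.7, 88.3 and 89.3 in WT BA, 171, 168 and 189 in bpc vehicle and 74.0, 80.7 and 86.7 in bpc BA. Both treatments overlapped between genotypes, and the interaction was 0.0065 (95% interval −0.29 to 0.30). The pectin lyase-like gene AT2G43890, the PLATZ gene AT4G17900, the aspartyl protease gene AT4G16563 and AT1G74940 followed, with estimates from −0.053 to 0.037 and no end beyond 0.37 in size. All 6 were falls, chosen for the nearness of the interval to 0.

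The strong responders with the smallest interaction p and a larger response in bpc were chosen by that p, so the estimates below describe the edge of the distribution and did not pass the adjusted test. AT1G23160, a member of the auxin-responsive GH3 family (chromosome 1, 8209226 to 8211486), had 0.619, 0.642 and 0.515 RPKM in WT vehicle, 3.61, 2.62 and 3.05 in WT BA, 0.270, 0.538 and 0.117 in bpc vehicle and 5.57, 4.63 and 5.37 in bpc BA. With BA every bpc library was above every WT library, and with vehicle the bpc libraries were mostly lower. The response was 1.71 ± 0.20 in WT and 2.85 ± 0.20 in bpc, a difference of 1.14 (95% interval 0.53 to 1.74). GRI, a Stig1-family gene named GRIM REAPER that acts in cell death triggered by reactive oxygen (AT1G53130; chromosome 1, 19794723 to 19795544), had 13.2, 12.5 and 16.7 RPKM in WT vehicle, 2.71, 3.94 and 2.15 in WT BA, 12.8, 11.6 and 12.1 in bpc vehicle and 1.15, 0.667 and 1.03 in bpc BA. Vehicle levels overlapped, and the BA levels of bpc lay below those of WT, a difference of −1.23 ± 0.19 (limma adjusted p 0.005) with BA. The fall was −2.11 ± 0.19 in WT and −3.14 ± 0.19 in bpc, an interaction of −1.03 (95% interval −1.62 to −0.44). An overlapping gene on the other strand, AT1G53120, could share reads with GRI.

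ABCG41, a transporter of the pleiotropic drug resistance type (AT4G15215; chromosome 4, 8671349 to 8679176), had 2.21, 2.05 and 2.18 RPKM in WT vehicle, 3.87, 4.48 and 4.56 in WT BA, 1.65, 1.69 and 1.39 in bpc vehicle and 5.63, 5.05 and 5.40 in bpc BA. Here bpc was lower than WT in all vehicle libraries and higher in all BA libraries, with an interaction of 0.64 (95% interval 0.26 to 1.03). The defensin-like gene AT4G22230 rose by 0.93 ± 0.14 in WT and 1.602 ± 0.14 in bpc, a difference of 0.68 (95% interval 0.25 to 1.099); its bpc vehicle libraries lay below WT, at a log2 difference of −0.62 ± 0.14 (limma adjusted p 0.038), and its BA libraries overlapped. The WD40 repeat gene AT1G47610 and the SAUR gene AT4G22620, of the small auxin-up RNA family, completed the 6, at 0.91 (95% interval 0.33 to 1.49) and 0.86 (95% interval 0.31 to 1.41). AT1G47610 stayed at or below 2.17 RPKM in all libraries, so its values rest on few reads.

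Of the strong responders with a smaller response in bpc, ERF53, an AP2/ERF transcription factor gene linked to drought responses (AT2G20880; chromosome 2, 8985959 to 8987302), had 6.00, 5.92 and 8.70 RPKM in WT vehicle, 0.0665, 0.358 and 0.137 in WT BA, 3.41, 3.55 and 2.76 in bpc vehicle and 0.266, 0.142 and 0.164 in bpc BA. With vehicle all bpc libraries were below all WT libraries, and with BA both genotypes were near 0 and overlapped. With vehicle the genotypes differed by −0.96 ± 0.20 (limma adjusted p 0.03), and with BA by 0.025 ± 0.20 (limma adjusted p 0.97). The response was −3.42 ± 0.20 in WT and −2.44 ± 0.20 in bpc, an interaction of 0.99 (95% interval 0.36 to 1.62), and both BA groups were so low that the size of the fall depends on the added 0.5. The uncharacterized gene AT3G25011 had the same form, with 5.03, 4.52 and 6.10 RPKM in WT vehicle, 0.753, 1.35 and 0 in WT BA, 1.64, 1.64 and 2.68 in bpc vehicle and 0.752, 1.604 and 0.930 in bpc BA, and an interaction of 1.78 (95% interval 0.61 to 2.96). CYP87A2, a cytochrome P450 gene (AT1G12740; chromosome 1, 4342209 to 4344875), differed at the other end. It had 8.35, 8.51 and 10.07 RPKM in WT vehicle, 44.5, 65.3 and 60.0 in WT BA, 9.29, 10.06 and 12.3 in bpc vehicle and 38.6, 43.5 and 44.4 in bpc BA. Vehicle levels overlapped, the BA levels of bpc lay just below those of WT, and the response was 2.58 ± 0.15 in WT and 1.95 ± 0.15 in bpc, a difference of −0.62 (95% interval −1.08 to −0.17).

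The other 3 genes of this kind were low. AT5G35915 and AT3G29252 are transcribed pseudogenes. AT3G29252 was listed at 0 in all 6 vehicle libraries and had 5.84, 4.01 and 4.59 RPKM in WT BA and 2.40, 3.29 and 2.55 in bpc BA, and no fold change is given. AT5G35915 had 2.99, 4.37 and 3.65 RPKM in WT BA and 2.05, 1.49 and 1.62 in bpc BA and was at or near 0 with vehicle. Its interval held 0 with an added constant of 0.1. The authors' deposited tables give it log2 fold changes of 6.76 in WT and 7.14 in bpc, a larger response in bpc. AT4G03600, annotated as a pyrroline-5-carboxylate reductase, rose by 2.27 ± 0.18 in WT and 1.58 ± 0.18 in bpc, a difference of −0.69 (95% interval −1.26 to −0.13). Over all strong responders, 27 differed between genotypes with vehicle (background 1.99% of genes, 0.91% higher and 1.08% lower in bpc) and 34 with BA (background 2.32%, 1.29% higher and 1.03% lower).

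**Figure D3:**
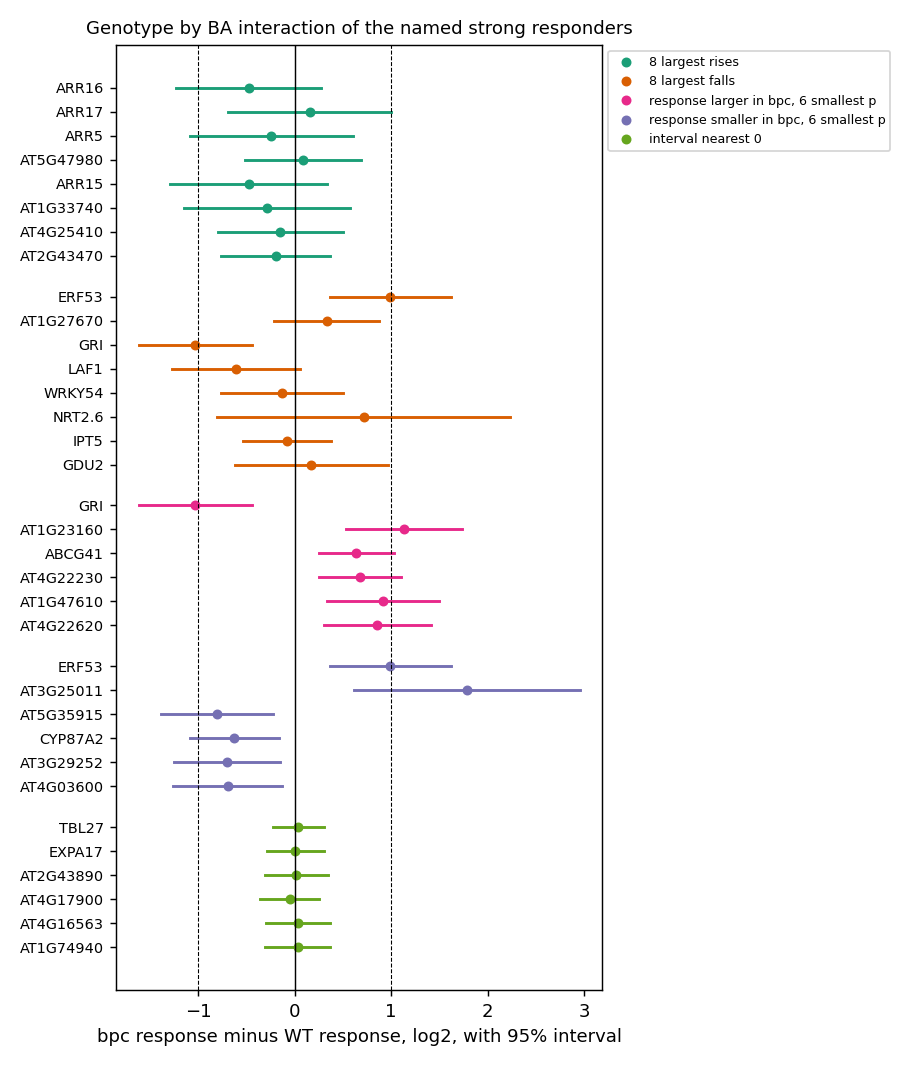
Difference of the BA responses, bpc minus WT (log2 of RPKM + 0.5), with its 95% limma interval for the strong responders named by rule, in the groups of the colour key; GRI and ERF53 belong to 2 groups each. The 6 genes at the bottom stay within 0.4 of 0, the intervals of the 8 largest rises all hold 0, and the genes chosen by smallest p lie to either side.

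In other pathways, 0 genes were called for an interaction. CC-type glutaredoxins, small redox proteins, held 11 measured members, of which 8 were strong risers and 4 of these were kept. The member AT4G15670 rose from 0.733, 0.146 and 0.169 to 2.34, 2.23 and 2.41 RPKM in WT and from 0.319, 0.319 and 0 to 2.92, 3.58 and 4.52 in bpc, and AT3G62930 from 2.36, 2.12 and 2.45 to 6.89, 9.20 and 6.17 and from 5.01, 4.23 and 3.77 to 8.82, 9.97 and 9.17. The BA levels of the first did not overlap between genotypes, and bpc was higher. Their interactions pointed in opposite directions, 0.77 (95% interval −0.068 to 1.605) and −0.45 (95% interval −0.91 to 0.013), and both held 0. In total 8 of the 11 rose in WT and 10 in bpc, beside 3.85% and 4.24% of all genes. The difference between the counts of 8 and 10 was not tested. Paralogs of this family are close in sequence, and the sources used here do not give how counting divided reads between them.

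Among auxin genes the shares inside the margin were close to those of all genes. Of 25 measured Aux/IAA genes, which encode repressors of auxin responses, 21 intervals (84.0%, beside 85.0% of all genes) lay between −1 and 1, and 3 of the 4 strong responders were kept. IAA5 was undecided, at −0.54 (95% interval −1.12 to 0.040), with 4.37, 5.40 and 3.51 RPKM in WT BA and 3.14, 4.80 and 4.22 in bpc BA, which overlapped. Of 11 auxin carriers, 9 intervals (81.8%) lay between −1 and 1, the strong responder was kept, and the influx carrier AUX1 had −0.13 (95% interval −0.41 to 0.14). Of 16 genes of ethylene synthesis and signalling, 14 lay between −1 and 1 and 3 of 4 strong responders were kept. The ethylene receptor gene ETR2 (AT3G23150; chromosome 3, 8254559 to 8257888) had 13.1, 10.06 and 11.3 RPKM in WT vehicle, 3.00, 2.67 and 3.14 in WT BA, 12.2, 12.2 and 12.1 in bpc vehicle and 4.21, 3.82 and 4.91 in bpc BA. Vehicle levels overlapped, and with BA every bpc library was above every WT library. Its fall was −1.80 ± 0.13 in WT and −1.40 ± 0.13 in bpc, a difference of 0.40 (95% interval 0.0087 to 0.79) whose interval excluded 0 in 10 of 26 alternatives. Of 11 gibberellin oxidases, 3 were strong risers and 2 were kept, and GA2ox1, which inactivates gibberellin, was undecided at −0.57 (95% interval −1.33 to 0.18).

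Genes that answer stress and handling had 5 of 12 intervals (41.7%, beside 85.0% of all genes) between −1 and 1. Of the 12 measured, 2 were strong responders, and 0 of these 2 were kept within 2-fold. The summed level of the 13 listed genes was 495 to 536 RPKM in WT vehicle and 278 to 402 in WT BA. In bpc it was 524 to 646 with vehicle and 435 to 464 with BA. With BA the sums did not overlap between genotypes and bpc was higher. RD29A, given next, alone held 70.7 to 113 RPKM of the sum in WT BA and 198 to 217 in bpc BA. The higher sum is therefore not a result about the other listed genes. Its part in other differences was not tested. RD29A, a drought and cold responsive gene (AT5G52310; chromosome 5, 21240717 to 21243644), had 108, 163 and 129 RPKM in WT vehicle, 70.7, 90.8 and 113 in WT BA, 194, 206 and 301 in bpc vehicle and 198, 206 and 217 in bpc BA. Every bpc library was above every WT library. It was higher in bpc with BA by 1.20 ± 0.20 (limma adjusted p 0.0085), while its interaction was 0.40 (95% interval −0.22 to 1.01). ZAT12, a zinc finger gene of stress responses, and RD29B were at 0.45 (95% interval −0.038 to 0.93) and −0.94 (95% interval −2.14 to 0.26). Of 12 measured markers of root cell types, all 12 intervals lay between −1 and 1, beside 85.0% of all genes. Examples are 0.28 (95% interval −0.052 to 0.61) for the root hair gene COBL9 and 0.18 (95% interval −0.50 to 0.85) for the stem cell niche gene PLT1.

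Outside the strong responders, better expressed genes with the smallest interaction p are named here after their values were seen. PBP1, a calcium-binding protein that interacts with the kinase PINOID (AT5G54490; chromosome 5, 22121102 to 22122122), had 7.47, 6.34 and 4.14 RPKM in WT vehicle, 5.69, 6.43 and 7.02 in WT BA, 3.55, 3.54 and 1.74 in bpc vehicle and 9.25, 10.0 and 11.9 in bpc BA. In bpc the vehicle libraries were below all WT libraries and the BA libraries above all of them, while in WT the treatments overlapped. The response was 0.12 ± 0.24 in WT and 1.71 ± 0.24 in bpc, an interaction of 1.59 (95% interval 0.86 to 2.32), adjusted p = 0.9998. With same-numbered vehicle libraries treated as a block the adjusted p was 0.0097, over all alternatives the interaction was 1.304 to 1.81, and PBP1 was called in 3 of them, all of them added after the data were seen: that block, both vehicle libraries numbered 3 left out, and the latter with WT BA 1 rescaled. AT5G08205 overlaps PBP1 on the other strand.

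KUP11, a potassium transporter family gene (AT2G35060; chromosome 2, 14775041 to 14779106), had 11.9, 13.1 and 11.8 RPKM in WT vehicle, 14.9, 17.9 and 16.5 in WT BA, 13.4, 13.3 and 13.9 in bpc vehicle and 28.0, 30.3 and 31.0 in bpc BA. The bpc BA libraries stood above all others. The response was 0.41 ± 0.098 in WT and 1.11 ± 0.098 in bpc, an interaction of 0.70 (95% interval 0.40 to 0.998), and the genotypes differed by 0.84 ± 0.098 (limma adjusted p 0.00063) with BA. AT2G39980, another HXXXD-type acyl-transferase gene, had 4.93, 6.01 and 5.66 RPKM in WT vehicle, 4.17, 4.19 and 4.79 in WT BA, 7.38, 7.04 and 6.24 in bpc vehicle and 12.9, 10.0 and 10.12 in bpc BA. Its WT levels with BA lay below those with vehicle and its bpc levels above, an interaction of 0.94 (95% interval 0.54 to 1.34). LEA7, a late embryogenesis abundant protein gene (AT1G52690; chromosome 1, 19619724 to 19621534), had 2.35, 0.875 and 1.58 RPKM in WT vehicle, 3.21, 2.62 and 2.80 in WT BA, 18.9, 18.6 and 10.5 in bpc vehicle and 11.3, 8.28 and 7.21 in bpc BA. It was higher in all bpc libraries than in all WT libraries, by 2.99 ± 0.27 (limma adjusted p 9.7e-05) without BA and by 1.46 ± 0.27 (limma adjusted p 0.015) under BA, and the interaction was −1.53 (95% interval −2.36 to −0.70). CYP94B3, which encodes an enzyme that oxidizes the active jasmonate, responded by −1.11 ± 0.11 in WT and −0.50 ± 0.11 in bpc, a difference of 0.61 (95% interval 0.28 to 0.94) that stayed within 2-fold.

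**Figure D4:**
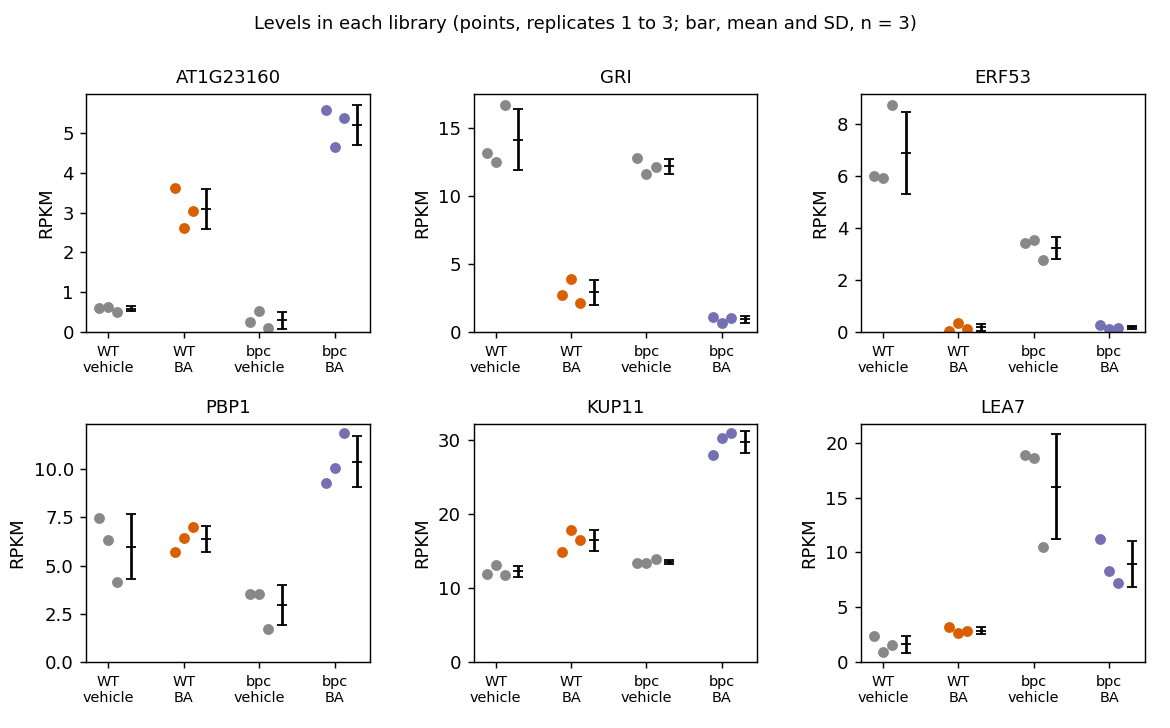
Levels in RPKM of 6 genes in each of the 12 libraries (points, replicates 1 to 3 from left to right; bars, mean ± SD, n = 3) by genotype and treatment. The genotypes differ in GRI with BA and in ERF53 with vehicle (limma adjusted p under 0.05); the BA libraries of AT1G23160 lie higher in bpc without overlap, but the adjusted p was 0.11; PBP1 and KUP11 have their highest levels in bpc BA, and LEA7 is higher in bpc throughout.

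The authors' deposited tables of the BA response, 1 for each genotype, list 611 of the 649 strong responders. In the authors' deposited tables, 605 of the 611 had an FDR of at most 0.05 with the same direction in both genotypes. The difference of the 2 deposited log2 fold changes had a median of −0.058, and 585 of the 611 differences lay between −1 and 1. Of the 40 listed genes whose interval excluded 0, 37 had a difference of the same sign in the authors' deposited tables. AT5G35915, named above, was among those with the other sign. For AT1G23160 the authors' deposited tables give 2.33 in WT and 4.02 in bpc, for GRI −2.14 and −3.66, and for ERF53 −4.98 and −4.01. The deposited tables come from the same libraries and hold no test of the difference.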

How the data were processed

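RNA of whole roots was sequenced in 12 libraries, made per the labels' protocols with a stranded mRNA kit. The submitters' processing notes name build TAIR10, featureCounts for counting, edgeR 3.0 for testing, TopHat2 2.0.11 with Bowtie 1.1.0, and also SAMtools 0.1.18 and FastQC; use of strand in counting is not stated there. RPKM values of 33602 genes were used as the authors deposited them. Per the file headers, the authors' edgeR tables hold a p-value and FDR per gene, a likelihood-ratio score, a log2 fold change and an average abundance as log2 CPM; the table of the genotypes with vehicle was not used here.

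Levels were taken as log2(RPKM + 0.5), for genes of at least 0.5 RPKM in 3 or more libraries. limma 3.58.1 in R 4.3.3 fitted 1 coefficient per group with an intensity trend and no replicate block, which leaves 8 degrees of freedom; the Benjamini-Hochberg adjustment ran over all 20776 genes. The filter kept AT2G07769, with 0.500 RPKM as the value compared with the minimum, and left out AT1G11362, at 0.4996; 251 genes met it in exactly 3 libraries. Intervals are 95% intervals of the same fit, unadjusted. Since counts are not used, library read totals were taken from the RPKM value of 1 read on tRNA genes and rounded to 10 reads.

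Named genes were those past the adjusted test, the 8 largest rises and 8 largest falls among strong responders of at least 2 RPKM, the 6 with the smallest interaction p in each direction of change in response and the 6 with intervals nearest 0, strong responders of the cytokinin lists, the BPC family, and up to 3 members of each other list. The lists held 200 genes, of which 173 were measured. Genes, lists and rules were chosen with earlier results of these data known. Gene positions and promoter windows are from RefSeq TAIR10.1, in which 20595 of the 20776 genes have an entry; Python 3.11.15 and pandas 2.3.3 were used. The fit was tested on simulated data with known changes. Alternatives were the added constant, the filter, the scaling, the trend, library weights, a replicate block and leaving out each library; 3 more were added after the data were seen. Replicate numbers did not pair the samples throughout.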

Additional observations from a re-analysis of the deposited data

Results flagged for a closer look

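AT3G25221 passed the adjusted test for a difference in BA response between the genotypes, on too few reads to establish one. Its log2 interaction was 3.11 (95% interval 2.35 to 3.88, adjusted p = 0.020 in limma over 20776 genes), with all 3 WT BA libraries below all WT vehicle libraries and all 3 bpc BA libraries above all bpc vehicle libraries. It was listed at 0 in WT BA and in bpc vehicle, and the other 6 libraries held 7 reads together, as the steps of their RPKM values show. The call was lost with an added constant of 1 and when any single library of WT BA, bpc vehicle or bpc BA was left out.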

How the results depend on the processing

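Of the counts given, the strong responders and those kept within 2-fold stayed within 1.5 times their value under all alternatives run. The share kept depended on the added constant, since both counts changed with it. It was 66.3% in the main fit, 46.2% with a constant of 0.1 (389 of 842) and 79.6% with a constant of 1 (418 of 525). The count of genes with a response called higher in bpc was 0 with a constant of 1 and with a minimum of 2 RPKM, 2 without the filter, and 0 to 1 when 1 library was left out. The count called lower was 1 with a constant of 0.1, without the trend and with library weights, and 2 without the filter. With library weights, 114 strong responders and 1175 of all genes had an unadjusted interval that excluded 0. Without the filter there were 603 among all genes. Leaving out 1 library gave 33 to 70 strong responders and 295 to 786 of all genes, the highest without WT vehicle 3, and a median interaction of risers from −0.078, without WT BA 1, to 0.069. The cause was not tested.

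Alternatives chosen after seeing the data were both vehicle libraries numbered 3 left out, the vehicle libraries alone in a replicate block, and the first with WT BA 1 rescaled. Each gave 2 genes called higher, AT3G25221 and PBP1, with 75, 77 and 88 strong responders and 693, 700 and 1016 of all genes whose interval excluded 0. With the replicate number as a block over all libraries, 1 gene was called, 651 genes were strong responders, 463 were kept within 2-fold, and the interval excluded 0 for 56 of them and for 386 of all genes. Deviations of same-numbered vehicle libraries correlated at 0.31, 0.37 and 0.63, but WT vehicle 1 with bpc vehicle 2 reached 0.34, so number 3 alone stood apart. Same-numbered BA libraries were at 0.059, −0.052 and 0.035. The numbers do not pair the samples throughout, but the vehicle libraries numbered 3 deviated together. A deviation shared by both genotypes cancels in the interaction, yet the main fit without a block keeps it in the spread. The main intervals can therefore be too wide and the adjusted p-values too large. For single named genes, 2906 of 3206 values under alternatives stayed on their side of an unadjusted p of 0.05, 212 were no longer under it and 88 newly under it. The direction changed in 120, in 0 of them for a gene under that p in the main test. Of 37 named strong responders kept within 2-fold, 23 kept their interval between −1 and 1 in all 26 alternatives. Median half-widths were 0.758 for strong responders under 2 RPKM in every group and 0.586 for the others, though the widest were 1.81 and 2.05.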

Other observations

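Among the other strong responders whose unadjusted interval excluded 0, several are regulators, named here after their values were seen and none past the adjusted test. MAPKKK18, a kinase gene known from abscisic acid responses, had 1.41, 1.01 and 1.25 RPKM in WT vehicle, 2.29, 3.76 and 3.68 in WT BA, 1.55, 1.18 and 2.16 in bpc vehicle and 5.93, 7.40 and 9.09 in bpc BA. With BA every bpc library was above every WT library, and vehicle levels overlapped. Its response was 1.099 ± 0.22 in WT and 1.91 ± 0.22 in bpc, a difference of 0.81 (95% interval 0.14 to 1.49), which held 0 when WT vehicle 1, WT BA 1, bpc vehicle 2 or bpc BA 3 was left out. CGA1, a GATA factor gene that cytokinin induces in green tissue, had 0.395, 0.473 and 0.609 RPKM in WT BA and 1.58, 1.47 and 1.22 in bpc BA, with at most 0.330 RPKM in any vehicle library. Its interaction was 0.90 (95% interval 0.20 to 1.59). CLE42, of the CLE signalling peptides, had 6.11, 11.8 and 9.59 and 11.6, 16.4 and 12.3 RPKM with BA, groups that overlapped, and an interaction of 1.25 (95% interval 0.28 to 2.22).

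ZFP5, a zinc finger gene of root hair and trichome formation, reached 31.6, 32.3 and 30.3 RPKM in bpc BA and 36.7, 48.0 and 43.1 in WT BA. Its interaction was −0.64 (95% interval −1.26 to −0.019), and the interval excluded 0 in 15 of 26 alternatives. Peroxidase genes pointed both ways. AT1G14550 had 13.6, 13.9 and 12.6 RPKM in WT vehicle, 6.04, 6.94 and 8.22 in WT BA, 9.12, 10.07 and 10.6 in bpc vehicle and 2.93, 2.65 and 3.95 in bpc BA. It was lower in all bpc libraries under each treatment, with an interaction of −0.64 (95% interval −1.09 to −0.19), while that of AT1G49570, which also fell, was 0.49 (95% interval 0.023 to 0.96).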
